A study of Mus musculus with 6 samples.

Results

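Small leucine-rich proteoglycans (SLRPs) are secreted proteins of the extracellular matrix, and 8 of their genes were followed across this scRNA-Seq series: decorin (Dcn), lumican (Lum), biglycan (Bgn), fibromodulin (Fmod), osteoglycin (Ogn), prolargin (Prelp), asporin (Aspn) and podocan (Podn). The genes were chosen by symbol, and each had a row in all 6 count tables, which together hold 42625 distinct gene symbols. SLRPs share a leucine-rich repeat domain that binds collagen fibrils and limits or orders their lateral growth, and several of them also bind TGF-β and other growth factors. Most carry chondroitin, dermatan or keratan sulfate chains. In the lung they are made mainly by fibroblasts (FBs), where Dcn is widely used as a marker of matrix or adventitial FBs, a use also made of it in this study.

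The study sorted GFP+ cells from the lungs of male mice, 10 to 14 weeks of age, in which a GFP reporter is knocked into the Pdgfra locus, so cells outside the Pdgfra lineage were sampled only as far as they passed the sort. In the single-dose experiment mice received 50 ul of PBS or bleomycin, a drug that injures the alveolar epithelium and is followed by fibrosis, by oropharyngeal aspiration. Lungs were collected 14 days later. The protocol gives the bleomycin dose as 2 U/kg and the treatment label of the same library as 4 U/kg. In the repetitive experiment 3 weekly doses of PBS or bleomycin were given, with 1 U/kg of the drug at each of the first doses and 0.5 U/kg at the last, and lungs were collected 14 days after the last dose. In the organoid experiment GFP+ FBs from PBS-dosed mice (normal) or from mice given 2 U/kg bleomycin (fibrogenic) were grown for 2 weeks in Matrigel with alveolar type 2 epithelial cells (AEC2s) labelled by a tamoxifen-induced, surfactant protein C-driven Cre. The growth protocol of the labels puts the mixture at 10 AEC2s to 1 FB, whereas the methods list FBs as the more numerous cells. Each of the 6 libraries pooled cells of 3 mice, so a condition is represented by 1 library. No difference between conditions can therefore be tested against the variation between mice. Values are given with exact 95% intervals that cover counting error only, and "higher" and "lower" describe these libraries.

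The libraries held 1015 to 10737 barcodes and 7201081 to 238618743 UMIs. Barcodes were clustered on genes other than the members, the gate genes and the subset check genes, and 752 to 7869 per library were classed as FBs. All 8 listed FB markers other than the members, Pdgfra among them, were detected in the FBs of each library. Clusters were classed as FBs by these same markers, so their detection is no separate support for the class. Median depth of the FBs was 6853 and 11736.5 UMIs in the single PBS and bleomycin libraries, 10602 and 3070 in the repetitive libraries, and 51777.5 and 41222 in the normal and fibrogenic organoids. The repetitive bleomycin library stands apart, with 38.5% of its FBs under 2000 UMIs against 2.56% in its PBS counterpart. Its largest shallow FB cluster, 1923 barcodes with a median of 1431 UMIs, was led, against the other FB clusters, by genes of other cells such as S100a9 and Sftpc. No doublet caller was run. Any pair of libraries shared 0 to 30 barcodes, the most between the repetitive bleomycin and fibrogenic organoid libraries. Of the 8 members, 6 lie in pairs on a chromosome. In the GRCm38 annotation (Gencode M21), Dcn (chr10:97479609-97518143) lies 47.0 kb before Lum (chr10:97565128-97572703). Aspn (chr13:49544443-49567565) lies 40.5 kb before Ogn (chr13:49608046-49624501), all of these on the plus strand. Prelp (chr1:133910304-133921414, minus strand) and Fmod (chr1:134037254-134048277, plus strand) are 116 kb apart, while Podn (chr4:108014791-108096445, minus strand) and Bgn (chrX:73483602-73495933, plus strand) have no other member on their chromosome.

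In lung FBs, Bgn, Dcn, Ogn and Prelp made up nearly the whole pool of SLRP transcripts, and the share supplied by Ogn differed more between bleomycin and PBS than the sum of the 8 genes did. The summed level was 7414 CPM (UMIs of a gene per 1000000 UMIs) after single PBS and 7658 after single bleomycin, and 6728 and 8024 in the repetitive libraries. In the same order Ogn supplied 18.1%, 5.95%, 29.4% and 11.6% of the pool. Levels below are CPM over the summed UMIs of all FBs of a library. Because the assay counts the 3′ ends of transcripts, a level is not divided by gene length.

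**Figure D1:**
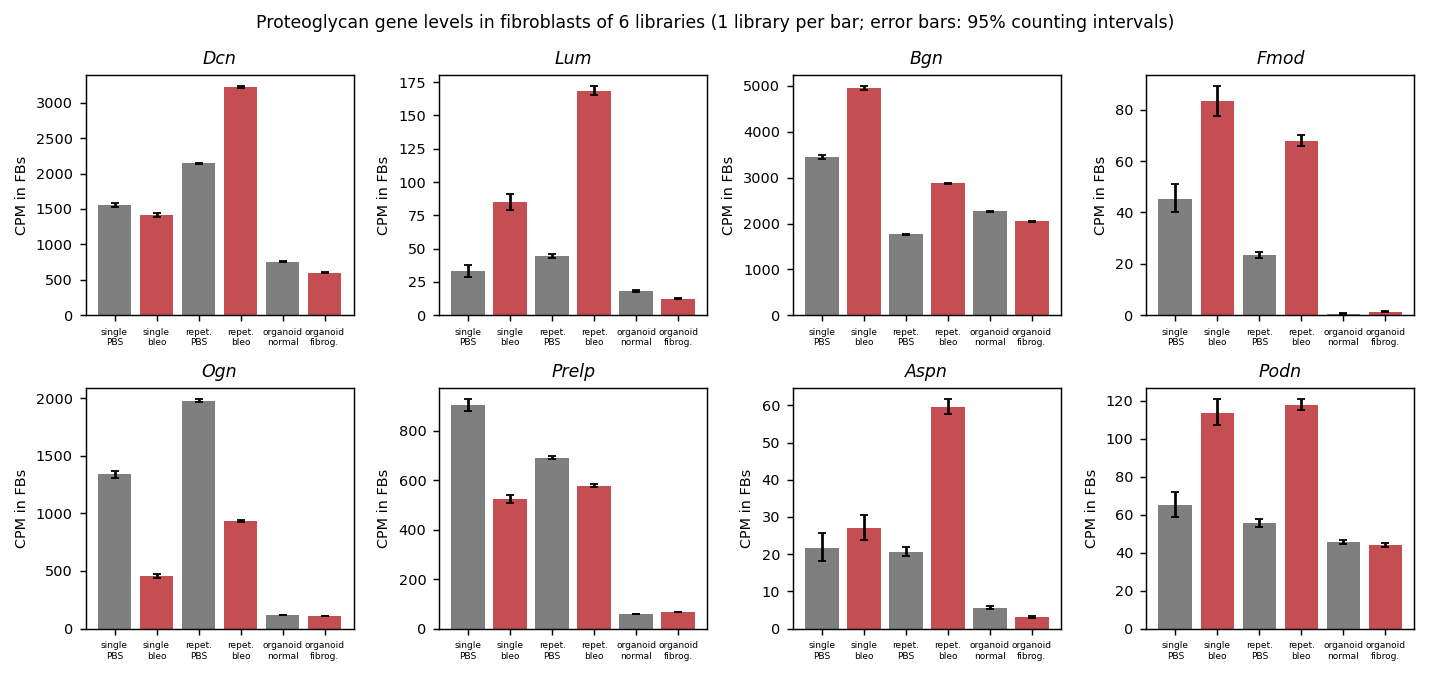
Level of each of the 8 genes (CPM over summed FB UMIs, linear axis from 0) in the FBs of the 6 libraries, 1 bar per library, with 95% counting intervals as error bars. Ogn and Prelp were lower in both bleomycin libraries than in their PBS libraries, and Fmod stood at 0.571 and 1.28 CPM in the organoids.

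Ogn, which carries keratan sulfate in some tissues and takes part in collagen fibril formation, had the largest difference on the lower side. Its level was 1341 CPM after single PBS, 456 after single bleomycin, 1980 after repetitive PBS and 934 after repetitive bleomycin. Both bleomycin libraries lay below both PBS libraries. The bleomycin level was 2.94-fold lower after a single dose (95% counting interval 2.84 to 3.05) and 2.12-fold lower after repetitive doses (2.10 to 2.14). Prelp, which anchors basement membranes to the underlying connective tissue, had levels of 902, 524, 691 and 577 CPM in the same order. Here too both bleomycin libraries lay below both PBS libraries. Prelp was 1.72-fold lower after a single dose and 1.20-fold lower after repetitive doses. Ogn and Prelp were the 2 of 8 members placed so, and 9.51% of the 9953 genes with 50 or more UMIs in both experiments were placed so as well.

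Promoter windows of Ogn, Prelp and Aspn are shown because Ogn and Prelp were lower in both bleomycin libraries, and Aspn, the nearest member to Ogn on its chromosome, with Omd between them, was not. They come from RefSeq (GRCm38.p6) and run from 250 bases before to 50 bases after the start site, at chr13:49607765-49608064 (plus) for Ogn, chr1:133921352-133921651 (minus) for Prelp and chr13:49544193-49544492 (plus) for Aspn. Each is read 5′ to 3′ on the strand of its gene. Capitals mark the letters TATAAA, or TTTATA where it lies on the other strand.
Ogn: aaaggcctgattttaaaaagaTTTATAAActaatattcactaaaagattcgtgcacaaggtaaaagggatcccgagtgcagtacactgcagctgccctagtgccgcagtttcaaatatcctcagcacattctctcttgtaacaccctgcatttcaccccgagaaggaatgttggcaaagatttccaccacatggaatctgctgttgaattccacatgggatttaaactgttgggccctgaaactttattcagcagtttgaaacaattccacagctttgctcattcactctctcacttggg
Prelp: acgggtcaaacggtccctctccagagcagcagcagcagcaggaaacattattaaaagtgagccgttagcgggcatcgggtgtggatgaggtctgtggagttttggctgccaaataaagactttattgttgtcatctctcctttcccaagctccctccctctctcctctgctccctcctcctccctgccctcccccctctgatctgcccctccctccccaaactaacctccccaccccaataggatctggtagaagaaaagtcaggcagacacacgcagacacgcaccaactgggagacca
Aspn: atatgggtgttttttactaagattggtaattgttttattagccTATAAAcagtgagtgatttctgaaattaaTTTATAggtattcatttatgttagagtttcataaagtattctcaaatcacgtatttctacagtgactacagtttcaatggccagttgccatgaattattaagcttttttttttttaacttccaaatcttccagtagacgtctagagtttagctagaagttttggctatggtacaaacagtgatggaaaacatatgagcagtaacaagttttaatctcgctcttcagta
The table had windows for 6 of the 8 members, all but Dcn and Lum, with 2 for Podn. TATAAA on either strand was present in 13.6% of all 32851 windows and in those of Ogn and Aspn, 227 and 229 bases before the start for the overlapping matches of Ogn and 207 and 178 bases before it for Aspn. GGGCGG was present in 35.7% of windows, in that of Bgn and in 1 of the 2 of Podn. TGANTCA was present in 7.81% and in none of the members' windows. GC content was 42.3% for Ogn, 55.3% for Prelp and 31.0% for Aspn, with a median of 52.7% over all windows. A match describes letters only.

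The members on the higher side were mostly the less abundant ones. Lum, a keratan sulfate proteoglycan of collagen fibrils, was at 33.1 CPM after single PBS, 84.9 after single bleomycin, 44.4 after repetitive PBS and 169 after repetitive bleomycin. Both bleomycin libraries lay above both PBS libraries, 2.56-fold (2.20 to 3.01) and 3.80-fold (3.64 to 3.97) above their own. Fmod, which binds collagen at a site it shares with Lum, was at 45.4, 83.3, 23.4 and 67.8 CPM, so that it was 1.84-fold (1.60 to 2.11) and 2.89-fold (2.72 to 3.08) higher. Podn, a less studied member with a longer repeat domain, was at 65.1, 114, 55.5 and 118 CPM, or 1.75-fold and 2.12-fold higher. Aspn, which binds collagen and TGF-β and carries an aspartate stretch in place of a glycosaminoglycan site, was at 21.7 and 27.0 CPM in the single-dose libraries, with intervals that overlap (18.1 to 25.7 and 23.9 to 30.5). It was at 20.7 and 59.6 CPM in the repetitive libraries, 2.88-fold higher (2.70 to 3.08). Lum, Fmod, Podn and Aspn, 4 of 8 members, thus had both bleomycin levels above both PBS levels, an order also found in 17.7% of the 9953 genes.

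Bgn and Dcn, close relatives that carry chondroitin or dermatan sulfate chains, stayed under 2-fold in both experiments. Bgn was at 3448 and 4954 CPM in the single-dose libraries (1.44-fold higher) and at 1769 and 2878 CPM in the repetitive libraries (1.63-fold higher). Dcn was at 1557 and 1415 CPM after a single dose, 1.10-fold lower, and at 2143 and 3221 CPM after repetitive doses, where the ratio had an interval of 1.49 to 1.51. Dcn therefore had no common direction in the 2 experiments, and its levels within FB subsets follow. PBS libraries of the 2 experiments differed among themselves, with 3448 against 1769 CPM for Bgn and 1341 against 1980 CPM for Ogn, and their tables list different sets of genes (30830 and 32285 gene rows).

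Counted at 2-fold or more on log2 ratios with 1 CPM added, 1 of 8 members (Lum) was higher and 1 (Ogn) lower after a single dose. Of the 10618 genes with 50 or more UMIs over both libraries, 7.7% were higher and 3.9% lower. After repetitive doses 4 of 8 (Lum, Fmod, Aspn and Podn) were higher and 1 (Ogn) lower, against 6.47% and 1.82% of 15110 genes. The median log2 ratio of the 8 members was 0.41 after a single dose and 0.89 after repetitive doses, beside 0.07 and 0.11 over all those genes. In such sums a change in the mix of FBs and a change of level per cell cannot be told apart. Markers of other cells, and cycling markers, also differed between the dose groups in the FBs. The 7 smooth muscle and mural markers summed to 70.7 CPM after single PBS and 243 after single bleomycin, and to 47.8 and 92.5 CPM in the repetitive libraries. In the same order the 7 myeloid markers summed to 54.98, 132, 14.2 and 45.8 CPM and the 4 cycling markers to 0.662, 49.7, 1.90 and 24.96 CPM, so these 3 lists were higher after bleomycin in both experiments. The 9 epithelial markers had no common direction, at 794, 92.4, 40.1 and 78.9 CPM. After a single dose neutrophil (43.6 to 3.09 CPM), T cell (27.2 to 13.4 CPM) and endothelial markers (18.0 to 10.8 CPM) were lower than after PBS. B cell, plasma cell and mesothelial markers were higher there. The part of these marker lists in the results was not tested.

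The share of FBs with a UMI gave the same order for Ogn and Lum when each barcode was thinned to 2000 UMIs. Ogn was found in 88.6% of FBs after single PBS, 55.5% after single bleomycin, 92.8% after repetitive PBS and 72.5% after repetitive bleomycin (unthinned 96.8%, 87.9%, 97.9% and 79.3%). Lum was found in 4.11%, 12.8%, 4.63% and 19.1% (unthinned 7.36%, 25.9%, 7.90% and 25.2%). Thinning left out 46, 19, 136 and 3033 FBs. SLRP UMIs were also found in barcodes classed as other cell types, and their levels there are called background. The source of these UMIs, such as free RNA or doublets, was not tested. In T cells of the last 3 of these libraries, thinned in the same way, Ogn was found in 4.17%, 21.0% and 12.8%, Lum in 0 of 24 (which allows a share of up to 12.5%), 0.952% and 3.85%, and Bgn in 70.8%, 21.0% and 24.4%. Median depth of those T cells before thinning was 4363, 3437 and 4453 UMIs. The FB shares of Ogn and Lum lay above those of T cells in each of the 3 libraries. For Lum after single bleomycin the FB share of 12.8% lay close to the T cell limit of 12.5%, which is approximate. The 23 T cells after single PBS, at a median of 2042 UMIs, were too few to thin, so endothelial cells give the background there. In 37 of them (median 8220 UMIs before thinning) Ogn was found in 51.4% (34.4 to 68.1; unthinned 65.0%), Bgn in 62.2%, Prelp in 35.1% and Lum in none, which allows a share of up to 8.11%. This background of Ogn lay below its FB share of 88.6% and above the T cell shares of the other libraries, and the Lum share of 4.11% is within the limit that 37 cells allow.

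To separate kinds of FBs, barcodes were gated on transcripts that are not SLRPs. Pi16 and Scara5 mark adventitial FBs, Tcf21 marks alveolar FBs including lipofibroblasts, and Cthrc1 marks matrix-producing FBs of fibrotic lung. A barcode entered a subset when it was positive, at 1 or more UMIs, for exactly 1 of the 3 gates. After single PBS 49 FBs (5.46%) were in the Pi16/Scara5 subset and 612 (68.2%) in the Tcf21 subset. After single bleomycin these were 100 (13.3%) and 286 (38.0%), after repetitive PBS 224 (4.21%) and 3892 (73.2%), and after repetitive bleomycin 1447 (18.4%) and 2344 (29.8%). The Cthrc1 subset held 40 FBs (5.32%) after single bleomycin and 184 (2.34%) after repetitive bleomycin, and 0 of 897 and 0 of 5315 FBs after PBS, where 2 and 17 FBs had a Cthrc1 UMI beside another gate. Whatever the other gates, 141 FBs (18.75%) had a Cthrc1 UMI after single bleomycin and 404 (5.13%) after repetitive bleomycin, so the exclusive gate left out more than it kept. The other FBs had no gate transcript or more than 1. Such shares move with depth, and the Pi16/Scara5 subset after repetitive bleomycin had a median of 1924 UMIs beside 11249.5 in the Tcf21 subset.

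Genes outside the gates mostly followed the labels. All 6 check genes of the Pi16/Scara5 subset and all 6 of the Tcf21 subset were highest there in each of the 4 lung libraries, and 5 of 6 of the Cthrc1 subset were in both bleomycin libraries. Col14a1, a collagen of adventitial FBs, was at 266 to 776 CPM in the Pi16/Scara5 subset and 29.5 to 152 in the Tcf21 subset of the 4 lung libraries. Npnt, an alveolar FB gene, was at 199 to 293 and 908 to 1962 CPM in the same subsets. Among the 3 gated subsets Postn and Spp1 were highest in the Cthrc1 subset, at 314 and 5712 CPM after single bleomycin and 281 and 12582 CPM after repetitive bleomycin. The exception was Fap, a protease of activated FBs, at 2.58 CPM in the Cthrc1 and 13.1 in the Pi16/Scara5 subset after single bleomycin and at 12.2 and 35.6 CPM after repetitive bleomycin. Summed over the 6 Cthrc1 check genes, FBs with no gate were at 7471 CPM against 6755 in the Cthrc1 subset after single bleomycin, and at 2217 against 14965 CPM after repetitive bleomycin.

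Dcn, Lum and Aspn were at higher levels in the Pi16/Scara5 than in the Tcf21 subset of each library. Prelp and, after PBS, Ogn were higher in the Tcf21 subset. These levels are relative to the UMIs of a subset and do not show what share of a gene's transcripts the subset held. Dcn was at 9194 CPM in the Pi16/Scara5 subset and 426 in the Tcf21 subset after single PBS, 5456 and 453 after single bleomycin, 11884 and 723 after repetitive PBS, and 9539 and 990 after repetitive bleomycin. The ratio was 21.6 (20.3 to 23.0), 12.0 (11.4 to 12.8), 16.4 (16.1 to 16.7) and 9.63 (9.49 to 9.78). The 4 Pi16/Scara5 values lay above every Tcf21 value, as they did for Lum and Podn and for 3.34% of the 6432 genes with 50 or more UMIs in each pair of subsets. For Podn the margin was narrow and within counting error.

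**Figure D2:**
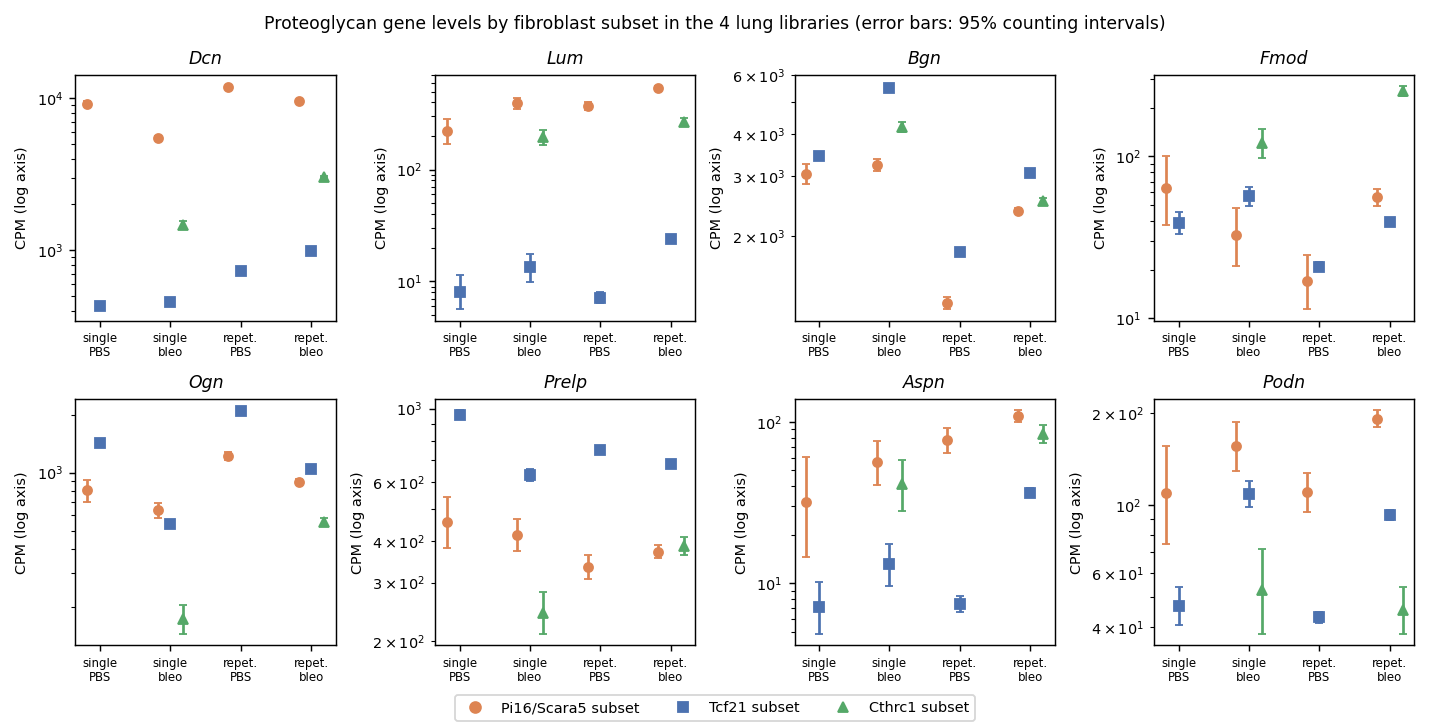
Level of each gene (CPM over summed UMIs, log axis) in the Pi16/Scara5, Tcf21 and Cthrc1 subsets of the 4 lung libraries, with 95% counting intervals as error bars. Dcn and Lum were highest in the Pi16/Scara5 subset of every library, and Fmod was highest in the Cthrc1 subset of both bleomycin libraries.

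Lum showed a still wider separation. It was at 223 and 8.10 CPM in the 2 subsets after single PBS, 394 and 13.4 after single bleomycin, 372 and 7.17 after repetitive PBS, and 543 and 23.8 after repetitive bleomycin. The ratios were 27.6, 29.5, 51.9 and 22.8. The low side was compared with T cells. After repetitive bleomycin these were at 30.3 CPM for Lum, above the 23.8 CPM of the Tcf21 subset in that library. The T cells were of lower depth than that subset, so the comparison cannot show whether its level is background. An FB cluster led by Cpm and Ptprt, with 1130 of 1144 barcodes from that library, was at 9.23 CPM (7.53 to 11.2). After repetitive PBS T cells were at 1.29 CPM (1 UMI, interval up to 7.18), below the 7.17 CPM of the Tcf21 subset. In the single-dose libraries T cells had no Lum UMI, with intervals up to 51.4 CPM after PBS and 22.3 CPM after bleomycin, which both reach past the Tcf21 levels. Dcn in T cells after repetitive bleomycin was at 559 CPM, against 990 in the Tcf21 subset. Aspn was at 31.9 and 7.14 CPM after single PBS (39 UMIs in all), 56.3 and 13.1 after single bleomycin, 76.9 and 7.44 after repetitive PBS, and 108 and 36.4 after repetitive bleomycin. Its ratio was 4.46, 4.30, 10.3 (8.35 to 12.7) and 2.98 (2.68 to 3.30). Podn, at 110 to 191 CPM in the Pi16/Scara5 subset and 42.9 to 109 in the Tcf21 subset, was 2.34-, 1.43-, 2.58- and 2.07-fold higher in the former.

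Prelp lay the other way in all 4 libraries, with every Pi16/Scara5 value below every Tcf21 value (5.92% of the 6432 genes). It was at 457 CPM in the Pi16/Scara5 subset and 957 in the Tcf21 subset after single PBS, 418 and 630 after single bleomycin, 335 and 749 after repetitive PBS, and 372 and 683 after repetitive bleomycin. These were 2.09-fold (1.76 to 2.52), 1.51-fold, 2.24-fold (2.06 to 2.44) and 1.83-fold lower. Ogn differed between subsets after PBS more than after bleomycin. After PBS it was 1.76-fold lower in the Pi16/Scara5 subset of the single-dose library (808 against 1425 CPM) and 1.71-fold lower in the repetitive library (1221 against 2089 CPM). After bleomycin the levels were 635 and 542 CPM (1.17-fold higher) and 895 and 1046 CPM (1.17-fold lower). Bgn was lower in the Pi16/Scara5 subset throughout, from 1.13-fold after single PBS (3049 against 3460 CPM) to 1.69-fold after single bleomycin (3250 against 5491 CPM). Fmod had no common order: its ratio was 1.63 (0.944 to 2.66), 0.576 (0.364 to 0.875), 0.818 (0.540 to 1.19) and 1.42 (1.24 to 1.62) in the 4 libraries.

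At 2-fold or more, members higher in the Pi16/Scara5 than in the Tcf21 subset numbered 3 of the 7 with 50 or more UMIs after single PBS (Dcn, Lum and Podn, with Aspn also past 2-fold on 39 UMIs), 3 of 8 after single bleomycin (Dcn, Lum and Aspn), 4 after repetitive PBS and 4 after repetitive bleomycin (both Dcn, Lum, Aspn and Podn). Over all genes with 50 or more UMIs in the pair of subsets 5.03%, 4.41%, 7.44% and 4.93% were higher. Prelp was the only member at 2-fold lower, in both PBS libraries, so the counts on the lower side were 1, 0, 1 and 0, against 13.4%, 7.68%, 9.71% and 5.21% of genes. Mesothelial cells, which line the lung surface, also had high Dcn, at 3059 to 18445 CPM in 1 to 13 barcodes per library. The 5 mesothelial markers summed to 3.54, 107, 146 and 38.2 CPM in the Pi16/Scara5 subset and 0.238, 2.51, 0.334 and 4.81 CPM in the Tcf21 subset, against 645 to 2862 CPM in mesothelial barcodes. Of these markers only Wt1 was detected in the Pi16/Scara5 subset after single and repetitive PBS. Wt1 was also among the genes leading the single-dose FB cluster of Sult1e1 and Ackr3. Msln and Lrrn4 were at 0 in the Pi16/Scara5 subset of all 4 libraries and Upk3b in 3 of them. Mesothelial barcodes after PBS were also at 0 for Msln (both libraries) and Lrrn4 (single dose), so the zeros of Msln after PBS and of Lrrn4 after single PBS say little. The 13 and 12 mesothelial barcodes after single and repetitive bleomycin had all 5 markers.

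The make-up of the pool followed from these levels. Dcn supplied 66.0%, 52.5%, 77.8% and 67.7% of SLRP UMIs in the Pi16/Scara5 subset of the 4 libraries, and 6.68%, 6.20%, 13.3% and 16.6% in the Tcf21 subset. In the Tcf21 subset Bgn supplied 54.3%, 75.1%, 33.0% and 51.3% and Ogn 22.4%, 7.41%, 38.5% and 17.5%. The 8 genes summed to 10399 to 15283 CPM in the Pi16/Scara5 subset and 5433 to 7307 CPM in the Tcf21 subset, with no overlap. This order rested on Dcn. Without Dcn, the sum of the remaining members was lower in the Pi16/Scara5 than in the Tcf21 subset of each library.

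**Figure D3:**
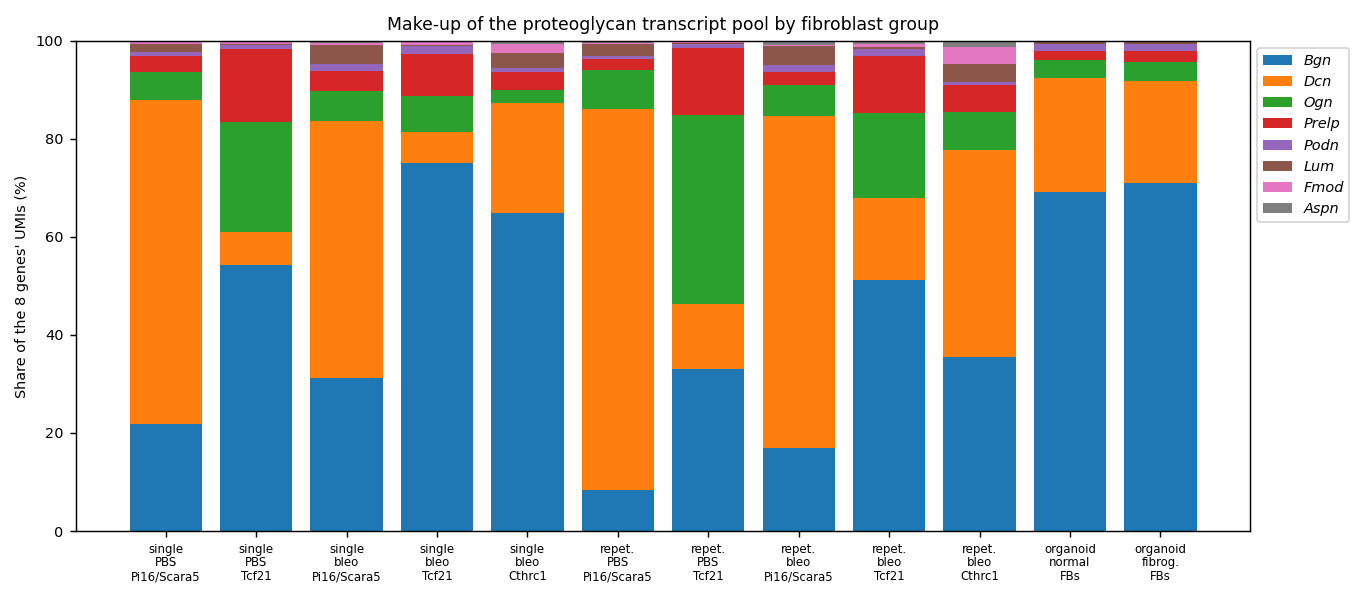
Share of the 8 genes' summed UMIs (%) supplied by each gene, 1 stacked bar for each lung subset of 20 or more FBs and for the FBs of each organoid library. Dcn supplied 52.5% to 77.8% in the Pi16/Scara5 subsets, and Bgn 69.2% and 71.0% in the organoids.

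The Cthrc1 subset of the bleomycin lungs had its own combination of members: Fmod and Lum were higher, and Ogn, Prelp and Podn lower, than in the Tcf21 subset of the same library. Fmod was at 121 CPM in the Cthrc1 subset and 56.8 in the Tcf21 subset after single bleomycin (2.13-fold, 1.65 to 2.73), and at 254 and 39.3 CPM after repetitive bleomycin (6.45-fold, 5.86 to 7.10). Lum was at 194 and 13.4 CPM (14.5-fold) and at 269 and 23.8 CPM (11.3-fold), the latter on a Tcf21 level below that of T cells. Dcn was at 1455 and 453 CPM and at 3023 and 990 CPM, 3.21-fold and 3.05-fold higher. Aspn was at 41.2 and 13.1 CPM and at 84.3 and 36.4 CPM, 3.15-fold and 2.32-fold higher. Lum, Dcn and Aspn in the Cthrc1 subset were between their Tcf21 and Pi16/Scara5 levels, while Fmod was above both.

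Ogn was at 173 CPM in the Cthrc1 subset against 542 in the Tcf21 subset after single bleomycin (3.14-fold lower, 2.63 to 3.77), and at 554 against 1046 CPM after repetitive bleomycin (1.89-fold lower). Prelp was at 243 against 630 CPM and at 387 against 683 CPM, 2.59-fold and 1.76-fold lower. Podn was at 52.8 against 109 CPM and at 45.4 against 92.6 CPM, 2.06-fold (1.49 to 2.92) and 2.04-fold (1.71 to 2.46) lower. Bgn differed by 1.31-fold and 1.21-fold, lower in the Cthrc1 subset. Members at 2-fold or more numbered 4 higher and 3 lower after single bleomycin, against 4.28% and 9.42% of genes. After repetitive bleomycin they numbered 4 higher and 1 lower, against 5.1% and 7.46%. When barcodes positive for more than 1 gate were kept in each of their subsets, the single-bleomycin counts were 1 higher and 0 lower. Smooth muscle and mural markers were also higher in the Cthrc1 subset, at a sum of 932 against 151 CPM after single bleomycin and 274 against 80.6 CPM after repetitive bleomycin, with 6 of 7 markers detected in each. Higd1b was at 0 in the former and Rgs5 in the latter, both pericyte genes, but mural barcodes of the repetitive libraries were at 0 for Higd1b too. The 56 mural barcodes of the repetitive bleomycin library were at 2954 CPM for that list and at 46.7 CPM for Fmod, below the 254 CPM of the Cthrc1 subset. The part of mural cells in the levels of that subset was not tested.

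Within the subsets, bleomycin was compared with PBS to see which differences of all FBs were also found in FBs of 1 gate. These comparisons were chosen after the values of all FBs were seen. In the Tcf21 subset Ogn was 2.63-fold lower after a single dose (2.50 to 2.77) and 2.00-fold lower after repetitive doses (1.97 to 2.02). In the Pi16/Scara5 subset it was 1.27-fold lower (1.08 to 1.49) and 1.36-fold lower (1.29 to 1.44). Ogn was thus lower after bleomycin in both subsets of both experiments, by less in the Pi16/Scara5 subset, and the difference between subsets was not tested. The Tcf21 subset was not alike in PBS and bleomycin libraries. Its 6 check genes summed to 14450 CPM after single PBS and 5853 CPM after single bleomycin. In that subset after repetitive PBS and bleomycin the check gene Inmt was at 5118 and 1865 CPM, and Col13a1 at 284 and 315 CPM. The part of these differences in the Ogn ratios was not tested.

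**Figure D4:**
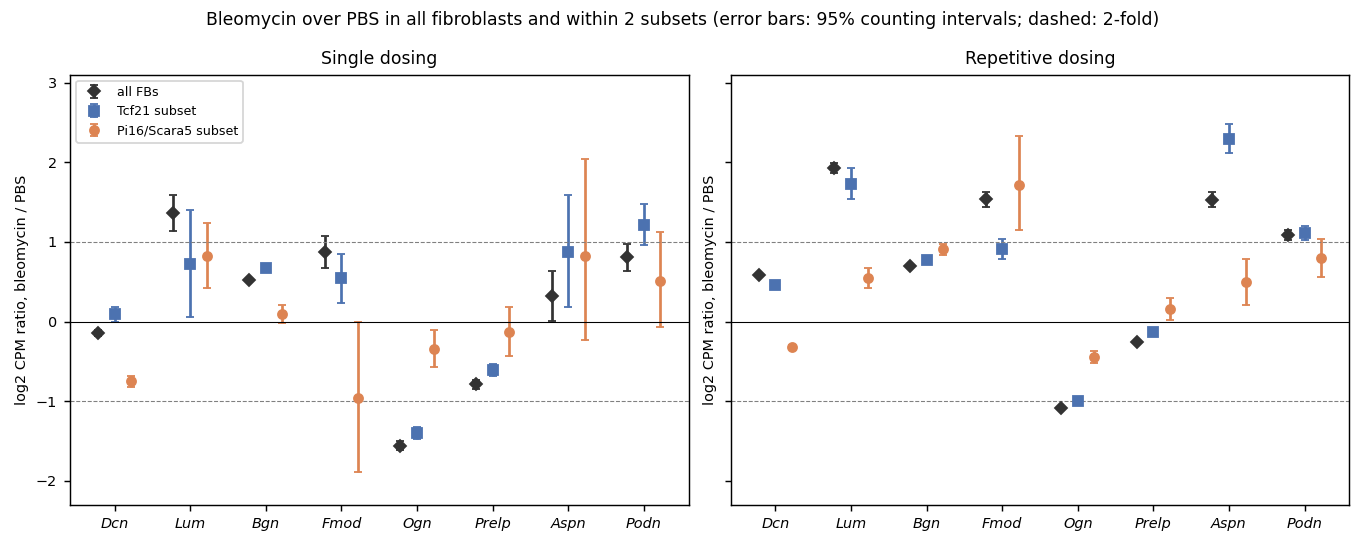
log2 ratio of CPM, bleomycin over PBS, for each gene in all FBs (diamonds), the Tcf21 subset (squares) and the Pi16/Scara5 subset (circles), with single dosing on the left and repetitive dosing on the right. Error bars are 95% counting intervals, dashed lines mark 2-fold, and Ogn lay below 0 in all 6 positions.

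Dcn was lower after bleomycin within the Pi16/Scara5 subset of both experiments, 1.69-fold (1.60 to 1.77) and 1.25-fold (1.23 to 1.27). Over all FBs its level was lower after a single dose and higher after repetitive doses (3221 against 2143 CPM). That subset was a larger share of FBs after bleomycin in both experiments, 13.3% against 5.46% and 18.4% against 4.21%. These are shares of barcodes and not of UMIs. The Pi16/Scara5 subset was not alike in PBS and bleomycin libraries. Its 6 check genes summed to 5500 CPM after single PBS and 3667 CPM after single bleomycin. Its median depth was 6241.5 UMIs after repetitive PBS and 1924 after repetitive bleomycin. Their part in the Dcn differences was not tested. In the Tcf21 subset Dcn was at a ratio of 1.06 (0.994 to 1.14) and 1.37. Lum was higher in all 4 within-subset comparisons. In the Tcf21 subset it was 1.65-fold and 3.32-fold higher, the latter at a bleomycin level below that of T cells. In the Pi16/Scara5 subset it was 1.77-fold and 1.46-fold higher. Podn was 2.32-fold and 2.16-fold higher in the Tcf21 subset and 1.42-fold (interval from under 1 to 2.18) and 1.73-fold higher in the Pi16/Scara5 subset. Bgn was 1.59-fold and 1.71-fold higher in the Tcf21 subset, with 1.07-fold (0.986 to 1.15) and 1.88-fold in the Pi16/Scara5 subset.

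Aspn differed most in the Tcf21 subset after repetitive doses, at 4.89-fold (4.32 to 5.55), where T cells of the bleomycin library were at 10.7 CPM and the subset at 36.4 CPM. In the other 3 within-subset comparisons it was 1.83-fold, 1.77-fold (0.850 to 4.12) and 1.41-fold higher. Fmod had opposite directions in the Pi16/Scara5 subset, 1.95-fold lower after a single dose on 43 UMIs and 3.27-fold higher (2.22 to 5.02) after repetitive doses. At 2-fold or more, 1 member was higher and 1 lower in the Tcf21 subset after a single dose (5.56% and 3.22% of genes), and 3 and 0 after repetitive doses (6.34% and 1.76%). In the Pi16/Scara5 subset these counts were 0 and 0 after a single dose (6.64% and 3.6%) and 1 and 0 after repetitive doses (2.93% and 1.67%).

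Clusters, which had been formed without the SLRP genes, spread Dcn more widely than Ogn. Over the 9 FB clusters of the single-dose libraries Dcn ranged from 67.1 CPM in a cluster led by Colq and Igfbp3 to 7867 CPM in a cluster led by Sult1e1 and Ackr3. The latter drew 120 barcodes from PBS and 86 from bleomycin lungs. Over the 10 clusters of the repetitive libraries Dcn ranged from 110 CPM, again in a cluster led by Colq, to 12549 CPM in a cluster led by Ackr3 and Sult1e1. Ogn ranged from 686 to 2306 CPM in the repetitive libraries and from 66.2 to 1547 CPM in the single-dose libraries.

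**Figure D5:**
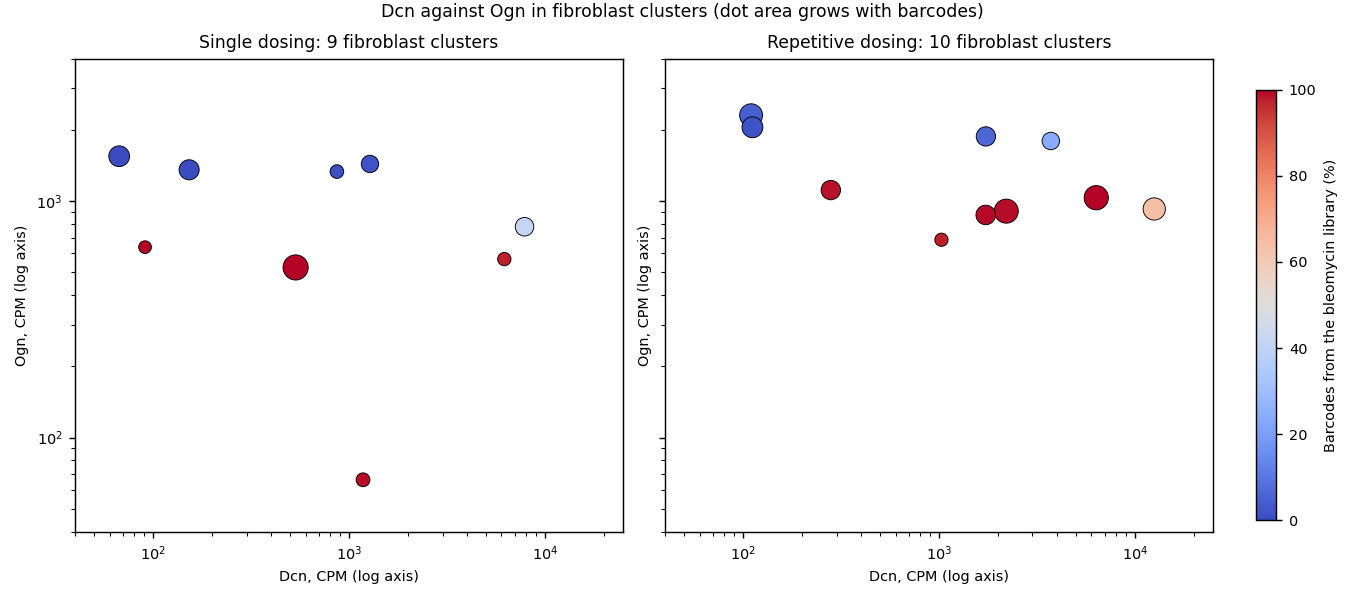
Dcn against Ogn (both CPM, log axes) in each FB cluster of the single-dose and repetitive experiments, coloured by the percentage of barcodes from the bleomycin library, with dot area growing with the number of barcodes. Clusters mostly of PBS barcodes had the highest Ogn levels, up to 1547 and 2306 CPM.

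Among the 9 single-dose clusters, one led by Ccl8 and Shisa3, with 81 of 83 barcodes from bleomycin lungs, had the highest Lum (389 CPM), Fmod (111 CPM) and Podn (320 CPM) levels. For Fmod its interval (86.9 to 139) overlapped that of the cluster led by Saa3 and Lcn2 (102 CPM, 93.8 to 111). In the single-dose cluster led by Saa3 and Lcn2, 418 barcodes that all came from bleomycin lungs, Bgn was at 5648 CPM, Ogn at 524 CPM and Dcn at 534 CPM. With 1 library per condition, a cluster mostly of 1 library cannot be told apart from that library.

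In organoids the pool was smaller and dominated by Bgn. The 8 genes summed to 3270 CPM in normal and 2882 CPM in fibrogenic organoid FBs, of which Bgn supplied 69.2% and 71.0% and Dcn 23.2% and 20.9%. Ogn was at 119 and 107 CPM, Prelp at 59.3 and 67.1, Lum at 18.1 and 12.4, Podn at 45.6 and 43.8, Aspn at 5.64 and 3.07 and Fmod at 0.571 and 1.28. All but Bgn lay below their 4 lung levels. The share of all genes placed so was not computed, so this order cannot be read as particular to these genes. Organoid and lung libraries differ in culture and in depth, and no ratio between them was taken.

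The fibrogenic organoid library stands apart from the normal one, with 17.6% of its FBs under 2000 UMIs against 0.68%, and 1227 of its 3309 FBs in 5 clusters that hold no barcode of the normal library. Values are therefore also given for the 4 FB clusters that hold barcodes of both, a choice made after seeing the data. The mix of these clusters differed between the libraries. The cluster led by Olfr1033 and Ptn held 773 normal and 1338 fibrogenic FBs. The cluster led by Csmd1 and Chodl held 860 and 316. Values over the shared clusters are not matched for this mix. Over all FBs, Dcn was 1.26-fold lower in fibrogenic organoids (603 against 757 CPM), Lum 1.46-fold, Bgn 1.11-fold (2045 against 2264 CPM), Ogn 1.11-fold and Aspn 1.84-fold lower (1.62 to 2.08). Prelp was 1.13-fold higher (1.10 to 1.17). Fmod was 2.24-fold higher (1.68 to 3.04), on 193 against 62 UMIs, which is under 2-fold once 1 CPM is added. None of the 8 members passed 2-fold in either direction, against 0.295% of 15922 genes higher and 0.754% lower. In the 4 shared clusters Dcn was 1.24-fold, Lum 1.45-fold, Bgn 1.10-fold, Ogn 1.11-fold and Aspn 1.82-fold lower, Prelp was 1.13-fold and Fmod 2.18-fold higher, and again no member passed with 1 CPM added. With barcodes that held UMIs of other lineages removed, 1 member (Fmod) passed on the higher side, with 145 normal FBs left.

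Epithelial cells gave the background for these values. After thinning to 2000 UMIs, Bgn was found in 96.3% of normal and 93.9% of fibrogenic organoid FBs and in 3.67% and 10.2% of epithelial cells, whose median depths were 39612 and 23246 UMIs. Dcn was found in 50.9% and 40.8% of FBs and in 1.04% and 2.31% of epithelial cells (unthinned 87.3% and 67.7% of FBs, 13.5% and 14.9% of epithelial cells). In the shared clusters alone the fibrogenic share was 44.5% for Dcn and 95.2% for Bgn. Fmod was found in 0.105% and 0.257% of FBs, where 0.0547% and 0 of 1818 epithelial cells had a UMI (the latter allows a share of up to 0.165%), so Fmod stood near background in culture.

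Dcn kept its lung order between the Pi16/Scara5 and Tcf21 gates in culture, although the check genes mostly did not follow the gates there. Dcn was at 925 CPM in Pi16/Scara5-positive and 508 in Tcf21-positive FBs of normal organoids, and at 844 and 475 CPM in fibrogenic organoids. The Cthrc1 gate held 354 (18.5%) of the normal and 646 (19.5%) of the fibrogenic FBs. Its 6 check genes summed to 28194 CPM in the Cthrc1 and 30546 in the Pi16/Scara5 gate of normal organoids and to 18223 and 26247 CPM in fibrogenic organoids. By this sum the Cthrc1 gate was thus not the highest in culture. Spp1 supplied most of it, at 26807 and 17141 CPM in the Cthrc1 gate and 16780 and 11548 CPM in the Tcf21 gate. The other check genes went both ways between the Cthrc1 and Pi16/Scara5 gates. The 6 Tcf21 check genes summed to 186 CPM in the Tcf21 and 184 in the Pi16/Scara5 gate of normal organoids and to 203 and 300 CPM in fibrogenic organoids. The 6 check genes of the Pi16/Scara5 subset summed to 84.5 CPM in the Pi16/Scara5, 104 in the Tcf21 and 55.7 in the Cthrc1 subset of normal organoids and to 165, 135 and 71.5 CPM in fibrogenic organoids, against 3667 to 5606 CPM in the Pi16/Scara5 subset of the lung libraries. Clusters separated the members more. In the cluster led by Csmd1 and Chodl Dcn was at 1194 CPM, Lum at 34.2, Ogn at 45.8 and Prelp at 12.6. In the cluster led by Olfr1033 and Ptn these were 492, 5.78, 163 and 96.1 CPM. Dcn and Lum were thus high where Ogn and Prelp were low. In the fibrogenic library 105 FBs fell in 2 small clusters led, against the other FB clusters, by epithelial genes (Cldn18 and Sftpa1).

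Likeness of pattern was described over 12 points, the 10 lung subsets of 20 or more FBs and the 2 organoid libraries, as Pearson's r of log2 CPM. The points share libraries and depth, and r is a description with no test. Dcn and Lum were alike (0.92), as were Lum and Aspn (0.90), Ogn and Prelp (0.89), and Dcn and Aspn (0.81), whereas Dcn and Bgn (-0.36) and Dcn and Prelp (0.06) were not. Aspn and Ogn thus had different partners among the members. Among 6051 genes of 20 CPM or more on average, those most like Dcn were Adgrd1 (0.96), Islr (0.95) and Gadd45g (0.95), and those most like Lum were Islr (0.95), Ubtf (0.92) and Fkbp5 (0.92). Ogn was most like Thap3 (0.98), Pid1 (0.97) and Npr2 (0.97), and Prelp most like Dpysl2 (0.99), Lrp4 (0.99) and Aldh1a1 (0.98). Fmod was most like the collagen VI genes Col6a2 (0.94) and Col6a1 (0.91), with Angptl2 (0.92) between them. Aspn was most like Cilp, Thbs3 and Gpnmb (each 0.92), Bgn most like Chmp6 (0.94), Blcap (0.93) and Ip6k2 (0.93), and Podn most like Dact1, Steap4 and Sirpa (each 0.89). These lists depend on the measure: by Spearman's rho 2 of the 3 genes were the same for Dcn, Lum and Aspn, 1 for Bgn, Fmod and Ogn, and 0 for Prelp and Podn.

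Genes that act with SLRPs were followed as listed groups, whose counts are to be read against the shares of all tested genes at 2-fold or more. Those shares were 7.7% higher and 3.9% lower after a single dose, 6.47% and 1.82% after repetitive doses, and 0.295% and 0.754% in organoids. Between the Pi16/Scara5 and Tcf21 subsets they were 5.03% and 13.4% after single PBS, 4.41% and 7.68% after single bleomycin, 7.44% and 9.71% after repetitive PBS and 4.93% and 5.21% after repetitive bleomycin. Between the Cthrc1 and Tcf21 subsets they were 4.28% and 9.42% after single and 5.1% and 7.46% after repetitive bleomycin. Of 11 genes for fibrillar collagens and their processing, 9 had the 50 UMIs needed after a single dose, of which 7 were higher at 2-fold or more and 1 lower, with a median log2 ratio of 1.91. After repetitive doses 8 of 11 were higher and 1 lower, with a median of 1.66. Col5a2, a chain of the collagen that starts fibrils, was at 112 and 789 CPM after single PBS and bleomycin, and Col3a1 at 1224 and 5057 CPM after repetitive PBS and bleomycin. The lower gene in both was Pcolce2, an enhancer of procollagen processing, at 2112 and 481 CPM and at 1919 and 783 CPM. In organoids 2 of 11 were higher and 0 lower, led by Tll1 (2.12 CPM in normal and 10.9 in fibrogenic FBs), a protease that cleaves procollagen and SLRP propeptides, and Col5a2 was the lowest (1288 and 1019 CPM). Between subsets, 4 of 8 and 4 of 9 genes were higher and 0 lower in the Pi16/Scara5 than in the Tcf21 subset after single and repetitive PBS, with Bmp1, which cleaves the same propeptides, the highest at 63.8 against 13.8 CPM and 103 against 11.6 CPM and Pcolce2 the lowest. Their medians were 1.06 and 0.99. After single and repetitive bleomycin only 1 of 9 and 2 of 9 were higher and 0 lower, with medians of 0.20 and 0.38. In the Cthrc1 subset 5 of 9 and 6 of 10 were higher after single and repetitive bleomycin and 1 lower in each. The highest were Col5a3 (188 against 27.3 CPM) and Col11a1 (32.8 against 0.143 CPM, the latter on 4 UMIs), and the lowest in both was Pcolce2 (97.9 against 682 CPM and 180 against 891 CPM).

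Of 23 genes that build chondroitin and dermatan sulfate chains, 21 had enough UMIs after a single dose, with 4 higher (7.7% of all genes), 1 lower (3.9%) and a median log2 ratio of 0.15. After repetitive doses 22 had, with 4 higher (6.47%), 1 lower (1.82%) and a median of 0.22. Chst11, a chondroitin sulfotransferase, was the highest in both, at 1.32 and 11.7 CPM and at 4.71 and 40.8 CPM, and Chst7, also a sulfotransferase, the lowest, at 8.28 and 2.57 CPM and at 9.15 and 3.12 CPM. Keratan sulfate chain genes had no member past 2-fold among the 4 and 5 with enough UMIs, with medians of -0.23 and 0.01 and Chst2 the highest and Chst1 the lowest in both. In organoids 0 of 22 chondroitin and dermatan sulfate genes were higher and 1 lower, Chsy3 at 58.7 and 27.7 CPM, with Chst13 the highest (0.111 and 0.372 CPM), and 0 of 6 keratan sulfate genes passed either way. Between the Pi16/Scara5 and Tcf21 subsets the chondroitin and dermatan sulfate genes had no common direction, with 1 of 13 higher and 2 lower after single PBS (median 0.29) and 4 of 22 higher and 3 lower after repetitive PBS (median -0.05). After single PBS the highest was Ugdh, which makes the glucuronic acid donor for chondroitin sulfate, at 234 CPM in the Pi16/Scara5 and 78.3 in the Tcf21 subset, and the lowest was Chst15, at 0 and 12.1 CPM. After repetitive PBS the highest was Chst11 (17.7 and 2.32 CPM) and the lowest Chsy3 (23.2 and 135 CPM), with Ugdh at 643 and 142 CPM. Of the keratan sulfate genes 3 of 4 and 2 of 5 were lower at 2-fold or more in the Pi16/Scara5 subset of those libraries, with Chst1 (3.54 against 15.5 CPM) and Chst2 (5.49 against 26.4 CPM) the lowest in turn. Among them was B4galt4, which extends keratan sulfate, at 17.7 against 52.9 CPM and 9.76 against 36.4 CPM.

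Of 9 other genes of the family, 3 had 50 or more UMIs after a single dose, 4 after repetitive doses and 5 in organoids. Ecm2, the gene next to Aspn, was at 43.6 and 16.1 CPM after single PBS and bleomycin and at 59.5 and 55.8 CPM after repetitive PBS and bleomycin. Omd, which lies between Aspn and Ogn, was at 10.9 and 2.88 CPM (3.80-fold lower, 2.41 to 6.13) and at 16.5 and 8.45 CPM (1.95-fold lower). Omd thus lay on the lower side with Ogn in both experiments. Tsku, a secreted inhibitor of several growth factor pathways, was at 9.27 and 11.5 CPM and at 3.70 and 8.35 CPM, and Optc, a gene next to Prelp, was 2.45-fold lower after repetitive bleomycin, on 350 UMIs in the PBS and 141 in the bleomycin library.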

How the data were processed

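The 6 deposited tables hold UMI counts per gene and barcode. The authors made these counts with Cell Ranger 3.0.1 and analysed them with Seurat 3. The submitters' processing notes name mm10, and the methods name GRCm38 with Gencode M17 without saying for which libraries. The single-dose tables list 30830 and 30828 gene rows and the other 4 have 32285 each, so whether 1 annotation was used for all 6 is not given in the sources used here. Levels are CPM over summed counts as deposited.

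The members, gene lists and gates were chosen with earlier results of these data known. Each experiment's libraries were clustered together (scanpy 1.11.5, Python 3.11.15; 2000 variable genes, 30 components, 20 neighbours, Leiden resolution 1), without the members, gate genes and subset check genes. Clusters were classed by marker lists. The marker counts needed, and the rule that shallow barcodes without a leading marker stay unnamed, were set after the clusters were seen. Barcodes over 3 scaled MADs of mitochondrial percent in their cluster, and clusters over a mean of 25% mitochondrial or 0.5% erythrocyte UMIs, were removed after the study's methods. Those name a mean absolute deviation, in place of which the scaled median absolute deviation was used. Single barcodes over 0.5% erythrocyte UMIs were also removed, a limit that replaces the study's MAD rule for these transcripts. No doublet caller was run.

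Genes with 50 or more UMIs over both groups were compared with a 2-fold limit on log2 ratios after adding 1 CPM. Printed folds are plain CPM ratios. Intervals are exact (Poisson for levels, Clopper-Pearson for shares, binomial for ratios; scipy 1.17.1), and cover counting error only. The limits printed for shares of 0 are not exact, and were set at 3 counts over the number of cells. With 1 library per condition no test was made. The scripts were tested on simulated counts. All 8 members and the listed gene groups are named by rule, each group with its highest and lowest gene in lung FBs, while in organoids and between subsets only part of these are named. Ugdh after repetitive PBS, B4galt4, Fmod in mural barcodes and the clusters described were picked after their values were seen. No protein sequence was used here, and not every FB cluster is described.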

Additional observations from a re-analysis of the deposited data

How the results depend on the processing

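Of 160 member counts under other settings, 138 stayed within 1.5 times the main count, 18 were lower, 4 were higher and 0 changed direction. After a single dose (1 higher, 1 lower) the Pi16/Scara5 subset alone gave 0 and 0. After repetitive doses (4 higher, 1 lower) it gave 1 and 0, and the Tcf21 subset alone gave 0 lower, since Ogn came to just under the limit. Both alternatives were chosen after seeing the data, as was keeping only organoid clusters of both libraries, which gave 0 and 0 as before. Removing organoid barcodes with UMIs of other lineages gave 1 higher in place of 0. For Pi16/Scara5 against Tcf21, the count lower after single PBS (1) was 0 when centred on the median gene, 0 with gates not exclusive, 0 when thinned to 2000 UMIs and 2 with the gate at 2 UMIs. The count lower after single bleomycin (0) was 1 when thinned, that after repetitive PBS (1) was 0 with gates not exclusive, and that after repetitive bleomycin (0) was 1 with the gate at 2 UMIs. The count higher after repetitive bleomycin (4) was 2 with gates not exclusive. For Cthrc1 against Tcf21, gates not exclusive gave 1 higher (4) and 0 lower (3) after single bleomycin. After repetitive bleomycin the count lower (1) was 0 with 10 CPM added, centred, with other lineages removed, with gates not exclusive, with gates over all barcodes and when thinned. Podn, at 2.04-fold, made up that count of 1. The causes were not tested. Of 640 values of single member log2 ratios under other settings, 425 were classed as the same and 215 as moved. Of 36 member ratios at 2-fold or more, all 324 values under other settings kept their sign and 285 stayed at 2-fold or more. Shares of FBs with a UMI moved in 92 of 96 alternatives, which change the depth. No paired analysis was possible because each condition has 1 library, and for the same reason no replicate could be left out. Low depth limits Aspn, Fmod, Lum and Podn most, with as few as 39 UMIs for Aspn in a comparison of subsets.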
